A study of Arabidopsis thaliana with 16 samples.

Results

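The bhlh89,91 light comparison set the flower bud transcriptome of the bhlh89,91 double mutant in low light against that of the same mutant in normal light. It covered 8 of the 16 libraries in the series, 4 per light level, and all 19937 of 33681 listed genes that reached at least 1 CPM (counts scaled to library size) in at least 4 of those 8 libraries. Plants of bhlh89,91, a cross of 2 T-DNA insertion lines in the Col-0 background, and of Col-0 were grown at 22 °C with 16 h days and moved to their treatment at the start of flowering. Normal light was 205 ± 8.6 (SD) μmol m-2 s-1 and low light, under shade netting, was 53 ± 5 (SD) μmol m-2 s-1. Poly-A RNA came from whole pre-mitotic buds holding anther stages 1 to 10, with 4 biological replicates per group. The question was which pathways of the light response were still present in bhlh89,91 and which responded in the mutant alone.

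bHLH89, bHLH91 and bHLH10 are closely related transcription factors of the tapetum, the anther cell layer that feeds developing pollen and supplies its wall and coat. Tapetal function depends on sugar supplied to the anther. In Arabidopsis, a fall in light lowers photosynthetic sugar supply, de-represses starvation genes, withdraws photoprotective pigments and proteins, and can shift the phase of clock-controlled transcripts. Whole buds mix many cell types, so fewer cells of a type and less RNA per cell cannot be told apart.

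Libraries held 20419619 to 23346158 estimated counts, and are called library 1 to 4 by the numbers of the deposited columns. Of the targeted genes, bHLH89, in TPM (transcript level scaled for length and depth), was at 22.7, 24.5, 23.2 and 18.6 in bhlh89,91 normal light and 16.2, 19.7, 15.7 and 11.1 in bhlh89,91 low light, against a mean of 45.9 in Col-0 normal light. Transcript of bHLH91 averaged 22.8 and 17.1 TPM in the mutant in normal and low light and 30.1 TPM in Col-0 normal light. Reads from both mutated loci were still counted, at a lower level than in Col-0 in normal light for bHLH89 (log2 difference -1.03, edgeR adjusted p = 8.6e-05) and bHLH91 (-0.39, adjusted p = 0.031). The third family member, bHLH10, did not pass the test between genotypes in normal light (log2 difference 0.01, adjusted p = 0.947), and fell in low light in the mutant (log2FC -0.46 ± 0.11 SE, adjusted p = 0.0041). All 8 floral organ identity markers were tested, with summed levels of 1360 to 1430 TPM in mutant normal light and 1220 to 1380 TPM in mutant low light, while none of 5 seed markers and 3 of 13 mature pollen markers reached the filter.

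Low light changed 643 genes in bhlh89,91 (3.23% of tested genes) at an adjusted p below 0.01 and an absolute log2FC of at least 1, called differentially expressed genes (DEGs): 405 rose (2.03% of tested genes) and 238 fell (1.19%). At an adjusted p below 0.05 and any fold, the sense in which rose and fell are used below, 17.0% of tested genes rose and 17.7% fell. The same thresholds gave 984 rising (4.94%) and 522 falling (2.62%) genes in Col-0, 7.55% together, and 29.5% of genes rose and 29.8% fell there at any fold. Because the filter used mutant libraries alone, genes expressed only in Col-0 are left out of every Col-0 count here. Outside the filter stood 1372 genes that reached 1 CPM in at least 1 of the 16 libraries. The medians over all genes were -0.01 in both genotypes, a value that the TMM scaling centres near 0. Of the mutant DEGs, 394 were DEGs in the same direction in Col-0, which is 61.3% of the mutant DEGs and 26.2% of the Col-0 DEGs. These kept genes comprised 254 that rose (1.27% of tested genes) and 140 that fell (0.702%). In 63 of them, against 24.3% of all tested genes, the response itself differed between genotypes, being smaller in the mutant for 55 and larger for 8.

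**Figure D1:**
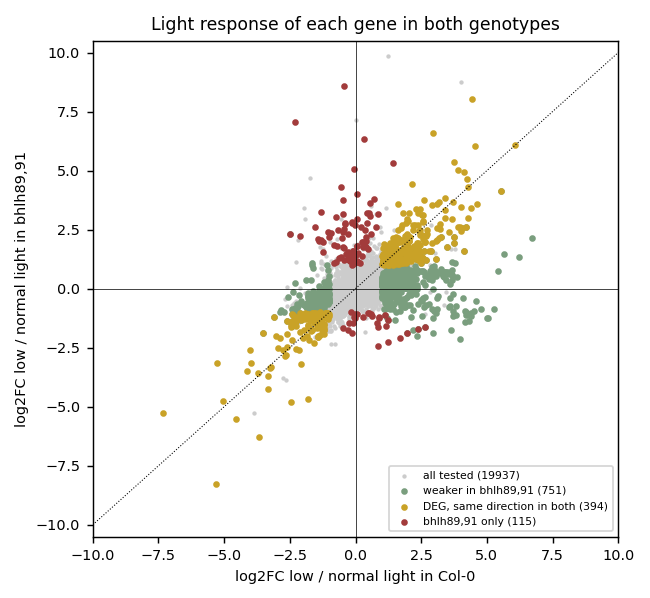
Light response (log2FC, low over normal light) of each tested gene in Col-0 on the x axis and in bhlh89,91 on the y axis, with 394 kept DEGs, 751 Col-0 DEGs whose response was weaker or opposite in the mutant, and 115 genes that responded only in the mutant marked. Kept genes lie in the upper right and lower left around the dotted line of equal response, and most mutant-only genes lie near the vertical axis or on the opposite side of it.

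Genes of sugar starvation and darkness still rose in bhlh89,91. Of 22 tested members of this list, 16 rose and 1 fell, against 17.0% and 17.7% of all genes. The median log2FC was 0.91 against -0.01 for all genes, and 20 rose in Col-0 with a median of 1.59. Of their interactions 7 were below 0 and 1 above, against 12.0% and 12.3% of all genes. The dormancy-associated gene DRM2 (AT2G33830) had 8.30, 8.41, 12.2 and 4.80 TPM in mutant normal light and 225, 363, 584 and 1125 TPM in mutant low light. No low-light library approached a normal-light one, though a lack of overlap was required of the largest rises. The log2FC was 6.10 ± 0.52 SE (adjusted p = 8.9e-07). In Col-0 the gene averaged 56.2 TPM under normal light against 3815 TPM under shading, a log2FC of 6.09. DYL1, another dormancy-associated gene, rose from 48.7 to 92.6 TPM in normal light to 413 to 764 TPM in low light (log2FC 3.13 ± 0.30 SE, adjusted p = 2.9e-06), and averaged 1989 TPM in Col-0 low light. The trehalose-phosphate synthase family genes TPS8 and TPS11, whose transcripts follow carbon status, rose with log2FC of 1.85 and 1.23. Among nitrate assimilation genes, asparagine synthetase ASN1, which is induced in carbon shortage, rose in the mutant (log2FC 1.79 ± 0.23 SE, adjusted p = 3.3e-05).

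Clock transcripts of the evening rose together, and 9 of 11 tested members of the evening list were DEGs, with 10 rising, against 17.0% of all genes. The list median was 1.61 in the mutant and 2.36 in Col-0, where all 11 rose. For 5 of the 11 the interaction was below 0, a smaller rise in the mutant, against 12.0% of all genes. PRR5, a repressor of morning genes, had 1.80, 1.64, 1.74 and 1.25 TPM in mutant normal light and 35.5, 36.9, 45.2 and 42.7 TPM in mutant low light. The groups did not overlap, as required of the 10 largest rises (log2FC 4.65 ± 0.15 SE, adjusted p = 2.9e-11), and the response in Col-0 was 4.24. FKF1, the blue-light photoreceptor of the photoperiod pathway, rose by 4.12 in the mutant and by 5.53 in Col-0, a difference past the test (interaction -1.41, adjusted p = 0.0019). The clock-regulated RNA-binding protein GRP7 rose to 1927 to 2662 TPM from 366 to 459 TPM, and GI, the scaffold that acts with FKF1, rose with a log2FC of 1.27 ± 0.08 SE. Of 9 tested morning clock genes 5 fell, 2 rose and 2 did not pass, with a median of -0.40, while 17.7% of all genes fell. The morning factor LHY fell from 44.3 to 91.0 TPM to 5.16 to 7.23 TPM (log2FC -3.30 ± 0.21 SE, adjusted p = 7.9e-08), and its partner CCA1 fell by 1.39, with a Col-0 log2FC of -0.55 that did not pass (adjusted p = 0.080). RVE8, a morning activator of evening genes, fell by 1.5 in the mutant and by 0.59 in Col-0 (interaction -0.91, adjusted p = 0.013). The hour at which buds were sampled was not given in the sources used here, and its part in the clock result was not tested.

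The evening element AAAATATCT, bound by morning MYB factors, was searched on both strands of the 250 bases before each RefSeq gene start (TAIR10.1). It occurred in 6 of 11 evening genes, in 12.0% of kept rising genes and in 2.55% of all tested genes with a window, as a description of letters only. The GRP7 window, on the minus strand of chromosome 2, held 3 copies and the PRR5 window, on the minus strand of chromosome 5, held 1, both shown with the element in capitals because they belong to a highly expressed member and to the member with the largest response in the mutant. The GI window held none. Other motifs were searched too. The I-box GATAAG was in 30.7% of kept rising genes and in 12.3% of all tested genes. The GCC box GCCGCC was in 1.2% of kept rising genes, 8.14% of genes rising only in the mutant and 1.94% of all tested genes.
GRP7: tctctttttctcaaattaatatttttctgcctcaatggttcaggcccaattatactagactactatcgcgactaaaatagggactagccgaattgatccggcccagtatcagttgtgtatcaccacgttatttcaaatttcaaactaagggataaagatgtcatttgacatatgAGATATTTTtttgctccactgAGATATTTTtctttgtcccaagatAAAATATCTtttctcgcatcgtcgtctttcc
PRR5: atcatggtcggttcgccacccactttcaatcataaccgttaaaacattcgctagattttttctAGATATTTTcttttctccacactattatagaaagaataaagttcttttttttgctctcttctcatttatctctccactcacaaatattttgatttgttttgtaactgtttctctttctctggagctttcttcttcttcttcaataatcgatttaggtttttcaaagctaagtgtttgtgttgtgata

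**Figure D2:**
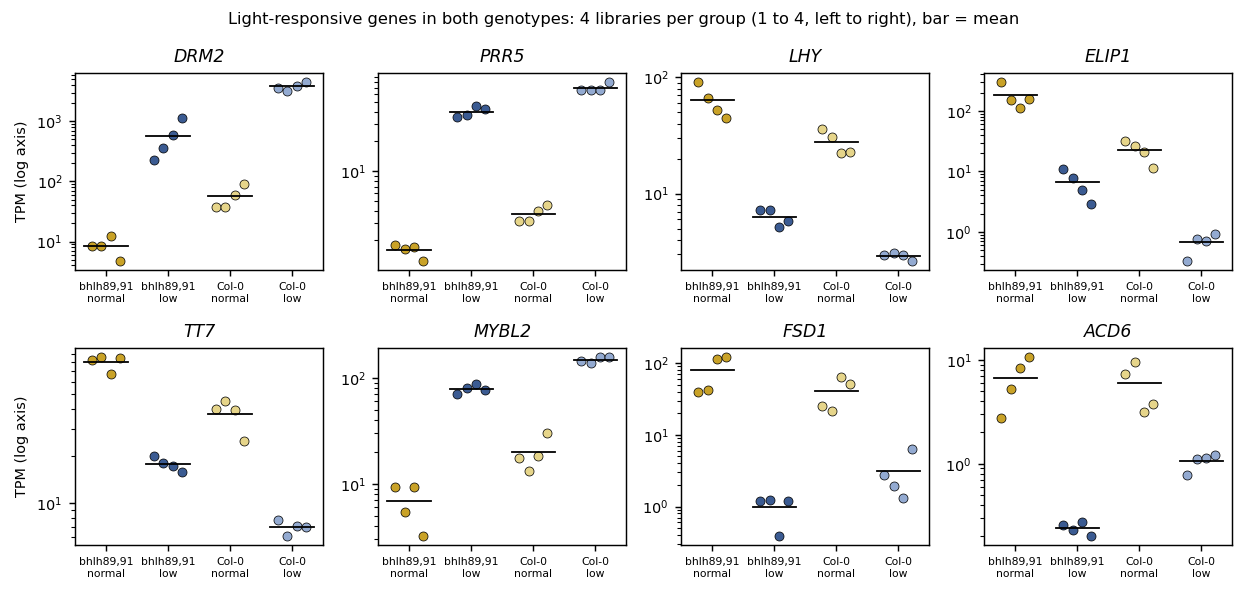
TPM on a log axis for 8 genes that responded in both genotypes, with 4 libraries per group as points and the mean as a bar. DRM2, PRR5 and MYBL2 were higher and LHY, ELIP1, TT7, FSD1 and ACD6 lower in every mutant low-light library than in every mutant normal-light library. For DRM2, PRR5, ELIP1, FSD1 and ACD6 this was required of the largest rises and falls.

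Most flavonoid enzymes and many light protection genes fell in both genotypes. Of 13 tested genes of high-light photoprotection 9 fell, 2 of them as DEGs, and 1 rose in the mutant with a median of -0.35, and 7 fell and 2 rose in Col-0, against 17.7% of all genes falling in the mutant. ELIP1, an early light-induced protein that binds pigment under excess light, had 299, 153, 114 and 157 TPM in mutant normal light and 10.9, 7.66, 4.87 and 2.92 TPM in low light (log2FC -4.76 ± 0.38 SE, adjusted p = 5.0e-07). ELIP2 fell by 3.47. Neither gene overlapped between light levels, but this was required of the largest falls, so it is not a separate result. Over all genes, 16.6% did not overlap in the falling and 12.8% in the rising direction. ELIP1 was also higher in bhlh89,91 than in Col-0 in normal light (log2 difference 3.01, adjusted p = 4.0e-05). Of 12 tested flavonoid and anthocyanin enzymes, 11 fell and 8 were falling DEGs, with a median of -1.25 in the mutant and -1.15 in Col-0. TT7, the flavonoid 3′-hydroxylase, went from 66.8 to 86.2 TPM to 15.7 to 19.9 TPM (log2FC -2.16 ± 0.14 SE, adjusted p = 6.8e-08), and chalcone isomerase TT5, F3H and flavonol synthase FLS1 fell by 1.20, 1.65 and 1.29. MYBL2, a repressor of anthocyanin genes, rose by 3.53 ± 0.27 SE (adjusted p = 3.1e-07). The HY5 homologue HYH fell by 1.94 and the shade-responsive growth factor PIF4 rose by 1.55 in the mutant, but their lists were mixed. Of 18 tested HY5, COP1 and BBX light signalling genes 5 rose and 5 fell in the mutant (median 0.04), and 6 rose and 5 fell in Col-0. Of 20 tested PIF and shade avoidance genes 5 rose and 2 fell in the mutant (median 0.08), and 9 rose and 6 fell in Col-0. Over all genes 17.0% rose and 17.7% fell in the mutant, and 29.5% and 29.8% in Col-0. Of 42 tested photosystem and light-harvesting genes, 17 fell and 3 rose, and members moved in both directions, with LHCB4.3 at a log2FC of -1.26 and LHB1B1 at 1.72. The plastid glucose-phosphate translocator GPT2 fell by 2.83.

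Some copper-linked transcripts fell in the mutant, and FSD1 fell in Col-0 too. Of 17 tested superoxide dismutase and copper genes 3 rose and 6 fell in the mutant, against 17.0% and 17.7% of all genes, with a median of -0.09. FSD1, the iron superoxide dismutase of the plastid that is transcribed when copper is scarce, had 39.8, 42.2, 112 and 121 TPM in mutant normal light and 1.18, 1.24, 0.39 and 1.18 TPM in mutant low light. The groups did not overlap, as required of the largest falls (log2FC -6.28 ± 0.63 SE, adjusted p = 3.5e-06). It fell by 3.69 in Col-0, and the difference between genotypes did not pass (interaction -2.59, adjusted p = 0.050). The copper chaperone CCH fell by 1.17 in the mutant. The precursors of the copper-responsive microRNAs also fell, MIR398c by 3.36 ± 0.57 SE (adjusted p = 3.6e-04) and MIR408 by 3.57 ± 0.68 SE (adjusted p = 9.2e-04), from 4.28 to 12.4 TPM to 0.44 to 1.40 TPM and from 3.25 to 9.25 TPM to 0.15 to 0.74 TPM. CSD1, a copper/zinc superoxide dismutase targeted by miR398 in Arabidopsis, rose by 0.42 ± 0.11 SE (adjusted p = 0.0096) against a Col-0 log2FC of -0.21 (adjusted p = 0.12; interaction 0.63, adjusted p = 0.010). Without mutant low-light libraries 1 and 2, CSD1 gave 0.36 (adjusted p = 0.072). The mature sequences from RefSeq TAIR10.1 (chromosome 5 and chromosome 2) are given with the seed, bases 2 to 8, in capitals, to identify the products of these precursors.
miR398c-3p: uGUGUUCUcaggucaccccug
miR408-3p: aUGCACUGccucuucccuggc

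The copper core GTAC was found 4 times in the 250 bases before MIR408 (plus strand of chromosome 2) and 34.7% of all tested genes with a window hold it at least once, so its presence was common. The window is shown with GTAC in capitals because MIR408 holds several copies.
MIR408: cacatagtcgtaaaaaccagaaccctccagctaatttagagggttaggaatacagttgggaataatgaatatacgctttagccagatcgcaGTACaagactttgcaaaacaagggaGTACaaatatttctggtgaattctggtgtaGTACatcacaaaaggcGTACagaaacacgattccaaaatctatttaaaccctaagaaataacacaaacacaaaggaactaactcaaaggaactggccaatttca

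AT2G30766 and AT1G47395, a pair of loci that have no symbol in the reference table, were among the 10 largest falls. AT2G30766 had 109, 22.5, 93.6 and 58.9 TPM in mutant normal light and 0, 0.719, 0 and 0 TPM in low light (log2FC -8.27 ± 1.36 SE, adjusted p = 2.9e-04), and AT1G47395 fell by 5.50 ± 1.12 SE. The ferritin FER1, an iron store, rose by 1.78 ± 0.24 SE (adjusted p = 5.3e-05) and by 1.38 in Col-0. Of 20 tested salicylic acid and defence genes 9 fell, 7 of them as DEGs, 2 rose and 9 did not pass, with a median of -0.22. Over all genes, 17.7% fell, with 1.19% as falling DEGs, and 17.0% rose. ACD6, an ankyrin protein that promotes salicylic acid signalling, had 2.77, 5.26, 8.33 and 10.6 TPM in normal light and 0.26, 0.23, 0.27 and 0.20 TPM in low light (log2FC -4.80 ± 0.49 SE, adjusted p = 4.9e-06). ACD6 fell more in the mutant than in Col-0 (interaction -2.33, adjusted p = 0.020), as did the glucanase BGL2 (interaction -2.87, adjusted p = 0.015), and without mutant low-light libraries 1 and 2 these interactions were -2.31 (adjusted p = 0.10) and -2.11 (adjusted p = 0.11). The ACD6 interaction also missed the threshold with limma-voom (-2.24, adjusted p = 0.14), and with limma-trend on log2(TPM + 1) neither ACD6 (-0.86, adjusted p = 0.17) nor BGL2 (-0.45, adjusted p = 0.27) passed. PR5 and the wall-associated kinase WAK1 fell by 3.18 and 1.76 without a called difference between genotypes. The cold-regulated gene COR15B rose by 1.42 ± 0.09 SE (adjusted p = 9.6e-08).

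Most wax and cutin genes and most sporopollenin and exine genes fell in both genotypes. Of 22 tested wax and cutin genes 17 fell and 1 rose in the mutant, against 17.7% and 17.0% of all genes. The list median was -0.41 in the mutant and -0.58 in Col-0. Of their interactions 5 were above 0 and 1 below, against 12.3% and 12.0% of all genes. The wax enzymes CYP96A15 and CER4 fell by 1.33 and 0.94 in the mutant, less than in Col-0 (interactions 0.74 and 0.73, adjusted p = 0.0038 and 0.0025). Of 17 tested sporopollenin and exine genes 10 fell and none rose in the mutant, with a median of -0.56. In Col-0 12 fell and 4 rose, against 29.8% and 29.5% of all genes. For these 17 genes 4 interactions were below 0, against 12.0% of all genes. Their summed level was 4050 to 6630 TPM in mutant normal light and 2920 to 4830 TPM in mutant low light, against 3530 to 5320 TPM and 5910 to 6630 TPM in Col-0. The pectinase QRT3, needed for separating pollen grains, fell by 0.92 ± 0.15 SE (adjusted p = 3.1e-04) and the reductase TKPR2 fell by 0.72 ± 0.12 SE (adjusted p = 3.4e-04). Of 8 tested members of a list of tapetum regulators, 1 fell, and the other 7 did not pass the test. The entries for bHLH89, bHLH91 and bHLH10 were not matched by symbol and stand outside that count, and all 3 fell in the mutant (log2FC -0.49, -0.40 and -0.46, adjusted p = 0.0088, 0.017 and 0.0041).

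**Figure D3:**
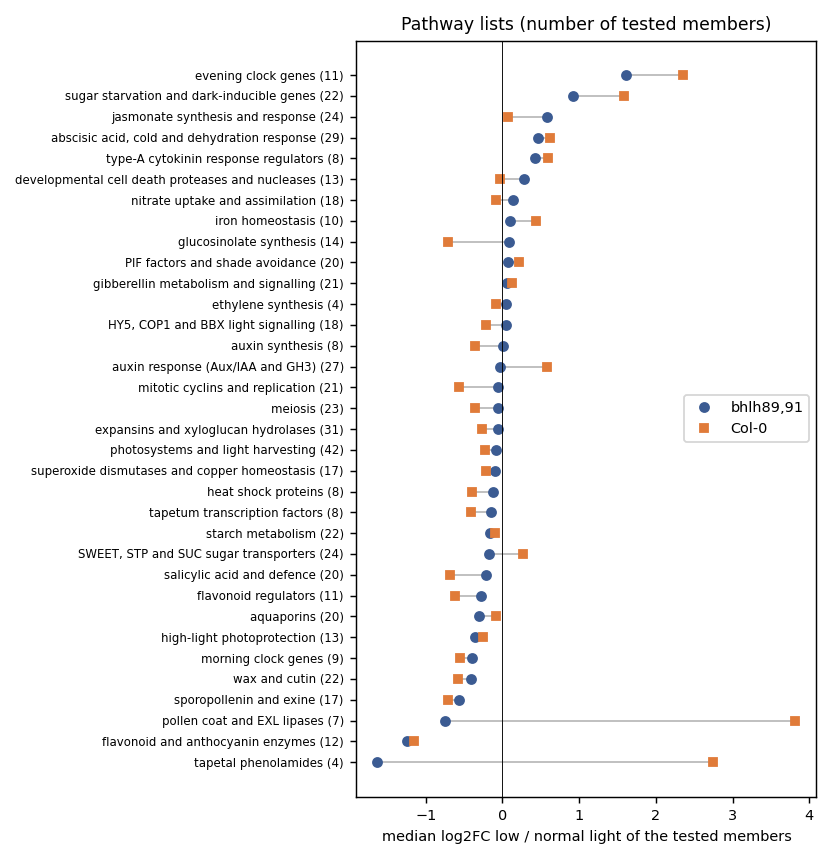
Median log2FC (low over normal light) of the tested members of each of 34 pathway lists in bhlh89,91 (circles) and Col-0 (squares), ordered by the mutant value. Evening clock and sugar starvation genes lie on the right and flavonoid enzymes on the left in both genotypes, while tapetal phenolamide and pollen coat genes lie on opposite sides.

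Only in the mutant, 115 genes met the rule that they were DEGs in bhlh89,91, differed between genotypes (interaction adjusted p below 0.05) and were unchanged or opposite in Col-0: 87 rose (0.436% of tested genes) and 28 fell (0.14%). They were picked by this interaction, which is also the genotype difference in low light minus that in normal light. Its values for them, and the directions of their genotype differences given next, therefore describe the choice. Of the 87 rising genes, 71 were higher in the mutant than in Col-0 in low light and 17 were lower in normal light, both at an adjusted p below 0.05. Over all tested genes, 25.7% were higher and 25.0% lower in the mutant than in Col-0 in low light, and in normal light 9.55% were higher and 7.98% lower. They included early stress regulators, among them the mitogen-activated protein kinase kinase MKK9, ethylene-response factors and WRKY factors. Of 18 tested genes named ERF 6 were among the mutant-only genes, and of 40 named WRKY 3 were, counts chosen after the values were seen.

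WRKY40, a rapidly induced defence repressor, had 2.03, 0.62, 0.85 and 4.07 TPM in mutant normal light and 44.5, 88.0, 8.54 and 6.12 TPM in mutant low light. Col-0 libraries were at 1.25 to 27.6 TPM in normal and 5.66 to 13.0 TPM in low light. Libraries 1 and 2 were far above libraries 3 and 4 (log2FC 4.32 ± 1.00 SE, adjusted p = 0.0036). ERF6, an ethylene-response factor, had 2.0, 1.03, 1.31 and 2.60 TPM in normal light and 32.9, 23.1, 18.4 and 9.33 TPM in low light (log2FC 3.61 ± 0.47 SE, adjusted p = 3.7e-05). The cold-response factors CBF2 and DREB1A rose by 5.07 ± 0.88 SE and 3.19 ± 0.44 SE, and AT5G51190, an ethylene-response factor, rose by 3.74 ± 0.75 SE. WRKY33, ERF5 and MKK9 rose by 2.69, 2.55 and 1.99. For these 8 genes the Col-0 log2FC was between -0.54 and 0.57 and did not pass the test. The mutant-only rule itself asks for a gene unchanged or opposite in Col-0.

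Mutant low-light libraries 1 and 2 were the highest over the whole group. The median over the 87 rising genes, as log2 CPM above the mutant normal-light mean, was 2.36, 2.08, 1.59 and 1.32 in libraries 1 to 4. On the same scale it was 0.318, 0.234, 1.01 and 1.05 in Col-0 normal-light libraries 1 to 4. In Col-0 low light it was 0.45, 0.149, 0.531 and 0.257. With libraries 1 and 2 left out together, chosen after the data were seen, 38 genes rose and 19 fell in the mutant alone, and 45 of the 115 stayed in the set. Under that setting ERF6 still rose (3.02, adjusted p = 4.4e-04), as did CBF2 (3.64, adjusted p = 0.0069), while WRKY40 did not pass (1.99, adjusted p = 0.12). What set libraries 1 and 2 apart was not tested.

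Of the jasmonate genes, 11 of 24 tested members rose and 1 fell in the mutant, against 17.0% and 17.7% of all genes. In Col-0 5 rose and 3 fell, against 29.5% and 29.8% of all genes. The list median, as log2 CPM above the mutant normal-light mean, was 0.443, 1.07, 0.222 and 0.318 in mutant low-light libraries 1 to 4. In Col-0 low light it was -0.234, 0.948, -0.0403 and -0.157, so library 2 stood apart there too. The median log2FC in the mutant was 0.585, and 0.237 with mutant low-light libraries 1 and 2 left out. MYC2, the main transcription factor of jasmonate response, rose by 1.45 ± 0.36 SE (adjusted p = 0.0054) with an interaction of 1.80 (adjusted p = 0.016), but without libraries 1 and 2 its log2FC was 0.51 (adjusted p = 0.21). ACS6, an ethylene synthesis enzyme, rose by 1.96 and then gave 0.49 (adjusted p = 0.39). JAZ7, a jasmonate repressor, rose in both genotypes, by 2.87 in the mutant and 2.02 in Col-0.

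Other mutant-only genes had very low levels in every other group. GT13, annotated as galactosyltransferase 13, was at 0, 0, 0 and 0.043 TPM in mutant normal light and 7.37, 2.13, 9.17 and 4.50 TPM in mutant low light, and at most 0.078 TPM in any Col-0 library. AT5G44380, a FAD-binding berberine-family protein, had 8.67, 3.02, 12.8 and 10.7 TPM in low light and at most 0.157 TPM in any other library (log2FC 6.32 ± 0.48 SE, adjusted p = 3.1e-07). AT4G39795 followed, with a log2FC of 5.31 ± 0.42 SE. In all 3 genes library 2 was the lowest of the low-light libraries, unlike the stress genes. None of the 3 overlapped between light levels, as the rule for naming them required. GT13 lost its interaction call when Col-0 normal-light library 1 (8.12, adjusted p = 0.17) or 3 (8.90, adjusted p = 0.061) was left out, and AT4G39795 when Col-0 normal-light library 3 was (3.34, adjusted p = 0.11).

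The cysteine proteases CEP1 and CEP2, of which CEP1 acts in tapetal cell death in Arabidopsis, also had their lowest low-light value in library 2, without a called interaction. CEP1 had 0.038, 0.077, 0.154 and 0.168 TPM in mutant normal light and 56.0, 17.0, 72.6 and 49.7 TPM in mutant low light (log2FC 8.77 ± 0.77 SE, adjusted p = 1.1e-06), and 0 to 2.0 TPM in Col-0 low light (log2FC in Col-0 4.03, adjusted p = 0.069; interaction adjusted p = 0.48). CEP2 had no count in any mutant normal-light library and 1.24 to 6.93 TPM in low light, at least 37.5-fold higher than a floor of 3 counts per library. AT1G12010, an ACC oxidase-like gene of ethylene synthesis, rose in both genotypes, by 6.59 in the mutant and 2.94 in Col-0 (interaction 3.65, adjusted p = 0.030), and AT2G25450, similar to the same enzyme, rose by 4.45. The AT1G12010 interaction missed the threshold without mutant normal-light library 2 or 4 or Col-0 normal-light library 3 or 4 (3.48 to 3.66, adjusted p = 0.051 to 0.059) and with limma-voom (adjusted p = 0.054). Of 13 tested members of the list of cell death proteases and nucleases, 5 rose and 3 fell, against 17.0% and 17.7% of all genes. Of these members the protease RD19 rose in both genotypes (log2FC 1.20 and 1.43).

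**Figure D4:**
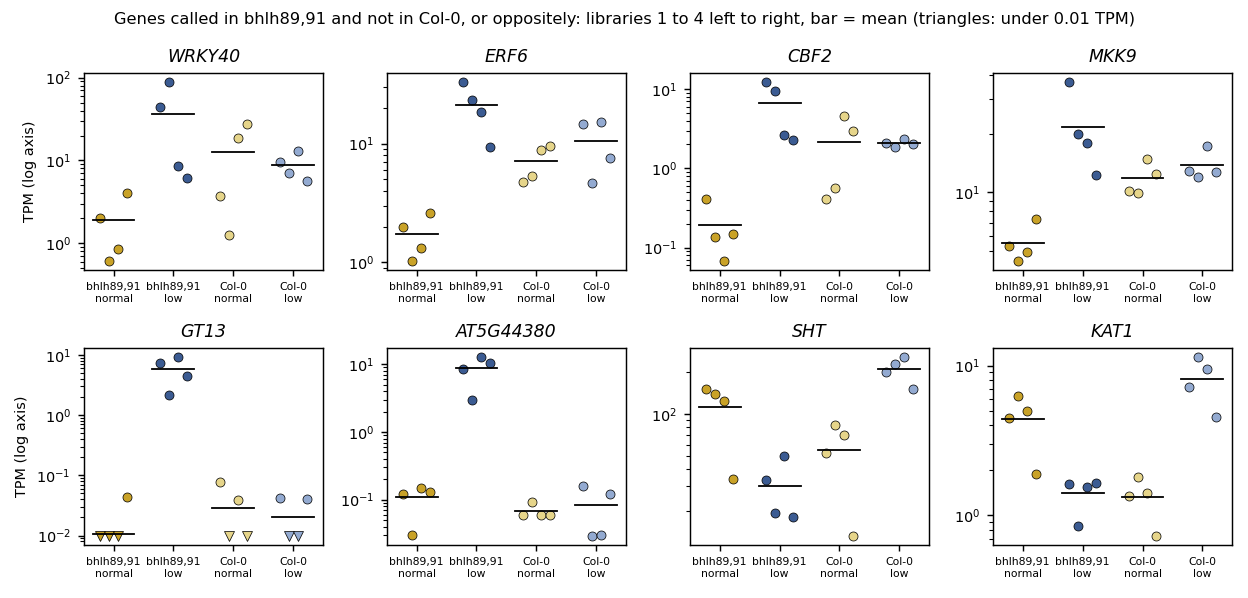
TPM on a log axis in the 4 libraries of each group (points, 1 to 4 from left to right; bars are means) for 8 genes of the mutant-only set. WRKY40, ERF6, CBF2 and MKK9 rose with library 1 or 2 highest, GT13 and AT5G44380 appeared with library 2 lowest, and SHT and KAT1 fell in bhlh89,91 while they rose in Col-0; triangles are values under 0.01 TPM.

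Of the 28 genes that fell in the mutant alone, 15 rose in Col-0. SHT, which joins hydroxycinnamates to spermidine in the tapetum, had 151, 140, 124 and 33.9 TPM in mutant normal light and 33.7, 19.3, 49.7 and 18.0 TPM in mutant low light. It rose in Col-0 from 13.3 to 83.6 TPM to 152 to 256 TPM. Library 4 of mutant normal light stood among the low-light libraries (log2FC -1.89 ± 0.50 SE, adjusted p = 0.0081; interaction -3.84, adjusted p = 0.0013). CYP98A8, a hydroxylase of the same phenolamide pathway, fell by 1.89 in the mutant, short of a DEG (adjusted p = 0.011), and rose by 2.96 in Col-0. TSM1, a methyltransferase of that pathway, had a log2FC of -1.15 ± 0.41 SE (adjusted p = 0.038), a call that was lost without any 1 of 6 mutant libraries (low light 1, 2 and 4, normal light 1, 2 and 3; adjusted p = 0.064 to 0.092) and with limma-voom (adjusted p = 0.074). All 4 tested members of this short list rose in Col-0 and had interactions below 0, while 3 fell in the mutant.

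The same library 4 was low in pollen coat genes, whose summed level ran from 33.8 to 799 TPM in mutant normal light, 77.1 to 479 TPM in mutant low light, 10.4 to 633 TPM in Col-0 normal light and 2100 to 4000 TPM in Col-0 low light. Its part in the phenolamide result was not tested. With library 4 of both normal-light groups left out, also chosen after the data were seen, SHT fell by 2.19 (adjusted p = 8.7e-05), while with mutant low-light libraries 1 and 2 left out it gave -1.72 (adjusted p = 0.061). Without library 4 of both groups the mutant-only genes numbered 57 rising and 52 falling. Other falls were outside this pathway. The potassium channel KAT1 went from 1.88 to 6.26 TPM to 0.85 to 1.66 TPM in the mutant and rose by 2.64 in Col-0. HR4, a homologue of a powdery mildew resistance gene, had 11.4 to 17.9 TPM in normal light and 2.24 to 6.27 TPM in low light. The metal-nicotianamine transporter YSL2, the phosphatase PAP22, the alternative NAD(P)H dehydrogenase NDA1 and the acyltransferase AT4G29250 fell by 1.75, 1.63, 1.18 and 2.26.

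A set of 751 genes were DEGs in Col-0 whose response was weaker or opposite in bhlh89,91 by the interaction test, which chose them. Of these, 55 were also kept genes. Mutant-only genes that were opposite DEGs in Col-0, such as SHT, were in this set as well. Of the 751, 508 rose in Col-0 (2.55% of tested genes) with a median of 1.62 there and 0.24 in the mutant, and 243 fell (1.22%). Over all genes, 29.5% rose and 29.8% fell in Col-0, and 17.0% rose and 17.7% fell in the mutant. Pollen coat genes rose in Col-0 for 7 of 7 tested and passed in neither direction in the mutant for 7 of 7. ATA27 had a log2FC of -1.13 ± 0.67 SE in the mutant (adjusted p = 0.21) against 3.84 in Col-0, and EXL6 -0.88 ± 0.88 SE against 4.78. Without library 4 of both normal-light groups, chosen after the data were seen, ATA27 passed as a fall (-1.48, adjusted p = 0.0147). Under that setting EXL6 did not pass (-1.275, adjusted p = 0.198). Of 27 tested auxin response genes 17 rose and 5 fell in Col-0 (median 0.58), while 6 rose and 7 fell in the mutant (median -0.03), and 14 interactions were below 0, against 12.0% of all genes. BRU6, a GH3 auxin-conjugating enzyme, rose by 1.59 in the mutant and by 4.12 in Col-0 (interaction -2.53, adjusted p = 4.1e-05), and the auxin-linked homeobox gene HAT2 by 0.75 and 2.58. The hexose transporter STP1 rose by 1.23 and 2.68. Of 21 tested mitotic cyclin and replication genes, 17 fell in Col-0 and 4 in the mutant, with 14 interactions above 0 against 12.3% of all genes, and meiotic recombinase DMC1 fell by 0.31 in the mutant and 0.79 in Col-0 (interaction 0.48, adjusted p = 0.0018).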

How the data were processed

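Estimated counts and TPM per gene were deposited by the authors, who quantified reads with Salmon against AtRTD2 transcripts and summed them with tximport. The genome build was not given in the sources used here. Estimated counts were rounded to whole numbers and tested with edgeR 4.0.16 (quasi-likelihood, TMM, 4 group means, 16 libraries, 12 residual degrees of freedom, Benjamini-Hochberg adjustment over 19937 genes). The interaction is the light response of bhlh89,91 minus that of Col-0. The code was tested on simulated data. Genes named were bHLH89, bHLH91 and bHLH10, the 10 largest rises and falls among DEGs, the 8 largest mutant-only rises and falls (each with a mean of 5 CPM and no overlap of libraries), and up to 4 members of each list with the smallest adjusted p (mean of 1 TPM), of which fewer are printed. CCA1, CBF2, WRKY33, ERF5, MKK9, CSD1, EXL6 and ATA27 were named after their values were seen. Members and lists were chosen with earlier results of these data known. Of 796 list entries, 758 matched a gene. All columns of per-sample values were used. Alternatives were DESeq2 1.42.0, limma 3.58.1 (voom, and trend on log2 TPM), other scalings, filters and thresholds, and leaving out each library.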

Additional observations from a re-analysis of the deposited data

Results flagged for a closer look

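The light response differed between genotypes by the interaction test for these genes named in the report, each value being the log2 response of bhlh89,91 minus that of Col-0. Among stress regulators it was 4.86 for WRKY40, 3.04 for ERF6, 4.22 for AT5G51190, 5.12 for CBF2, 2.68 for DREB1A, 2.72 for WRKY33, 3.00 for ERF5, 1.76 for MKK9, 1.80 for MYC2 and 3.22 for ACS6. Among genes low in all other groups it was 9.04 for GT13, 6.0 for AT5G44380 and 3.87 for AT4G39795, and for the ACC oxidase-like genes it was 3.65 for AT1G12010 and 2.29 for AT2G25450. Among tapetal and pollen coat genes it was -3.84 for SHT, -4.86 for CYP98A8, -3.67 for TSM1, -5.66 for EXL6 and -4.96 for ATA27. Among other mutant-only falls it was -3.48 for AT4G29250, -4.26 for KAT1, -1.76 for HR4, -1.47 for YSL2, -2.47 for PAP22 and -1.82 for NDA1. For clock genes it was -1.41 for FKF1 and -0.91 for RVE8, for defence genes -2.33 for ACD6 and -2.87 for BGL2, and for CSD1 0.63. For auxin, shade, sugar and meiosis genes it was -2.53 for BRU6, -1.83 for HAT2, -1.44 for STP1 and 0.48 for DMC1, and for wax genes 0.74 for CYP96A15 and 0.73 for CER4.

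In 8 cases 1 mutant library stood far from the other 3 of its group by Dixon's test, which flags about 1 in 20 groups by chance. In low light these were 0.393 TPM of FSD1, 0.851 TPM of KAT1 and 26.1 TPM of HAT2, each the lowest, and 0.719 TPM of AT2G30766, the highest. In normal light they were 94.6 TPM of TSM1 and 36.3 TPM of DMC1, each the lowest, and 98.0 TPM of FER1 and 0.0433 TPM of GT13, each the highest.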

How the results depend on the processing

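With limma-voom, 48 genes rose in the mutant alone, and the interactions of AT2G25450 (2.17, adjusted p = 0.083), DREB1A (2.38, adjusted p = 0.063) and WRKY40 (3.63, adjusted p = 0.21) missed the threshold. With limma-trend on log2(TPM + 1) the falling DEGs were 150 in the mutant and 323 in Col-0, kept falling genes 89, and mutant-only genes 57 rising and 17 falling. With no fold limit the DEGs were 2151 rising and 2116 falling in the mutant and 4695 and 4634 in Col-0, kept genes 1566 and 1593, mutant-only genes 315 and 162, and weaker genes 3842. Leaving out 1 library gave 54 to 121 mutant-only rises and 16 to 50 mutant-only falls. The rises were 54 without mutant normal-light library 2 and 56 without library 3. The falls were 16 to 18 without mutant low-light library 1 or 2 or mutant normal-light library 1, 2 or 3, and 50 without mutant normal-light library 4. Without mutant low-light libraries 1 and 2, chosen after the data were seen, the fit called 3203 interactions (4835 with all libraries, shared genes not counted) and 38 mutant-only rises, with 358 of the 394 kept genes shared. Without library 4 of both normal-light groups, also chosen then, mutant-only genes were 57 rising and 52 falling. WRKY40 missed the threshold with limma-voom (3.90, adjusted p = 0.086), as did CYP98A8 (-1.76, adjusted p = 0.082), and bHLH91 without mutant normal-light library 3 (-0.33, adjusted p = 0.059). TSM1 ranged from -1.18 to -1.0 without each of the 6 libraries that ended its call, and missed it in the fit of the mutant libraries alone (-1.15, adjusted p = 0.059) and with limma-trend (-1.07, adjusted p = 0.077, and -1.08, adjusted p = 0.078, with pseudocounts of 1 and 0.1). No named gene changed direction under any alternative run. The cause of these shifts was not tested. No paired analysis was possible because the deposited columns carry other numbers than the replicate labels.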
